A study of Mus musculus with 6 samples.

Results

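Chemokines are small secreted or membrane-bound proteins that direct the movement of leukocytes, and they act through G protein-coupled receptors on the responding cells. They are named for the spacing of their first conserved cysteines (CC, CXC, CX3C and C), with L for a ligand and R for a receptor, and many inflammatory ligands are induced by NF-kB or by interferon. Sertoli cells, the somatic cells of the seminiferous epithelium, form the barrier behind which most germ cells develop, and macrophages reside outside the tubules. The genes described were chosen by symbol, as every probe named CCL, CXCL, CX3CL, XCL, CCR, CXCR or CX3CR with a number and at most 1 letter, apart from 1 ligand that was left out. They comprised 49 genes measured by 66 of the 45281 probes on the array, with 36 genes for ligands and 13 for receptors.

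The cells were primary Sertoli cells of 3 week-old C57BL/6J mice with the genotype Ctnnb1(tm1Mmt/tm1Mmt), prepared from pooled tubules and kept in culture before infection. An adenovirus that expresses Cre (Ad-Cre, 3 RNA samples) was compared with an adenovirus that expresses eGFP (Ad-eGFP, 3 RNA samples), each applied for 24 h in serum-free medium at an MOI of about 50. Both groups carried the floxed allele, which after recombination by Cre gives a CTNNB1 protein that resists degradation. These samples hold no Ad-Cre-treated cells that lack the allele, so an effect of the recombined allele and one of Cre or its virus cannot be told apart. Each RNA sample was read on 1 Illumina BeadChip array, with between 20288 and 20901 probes per array at a detection p-value under 0.05, and the number of arrays limits the precision. Whether the RNA samples came from separate cultures is not given in the sources used here, so the p-values measure the spread between these samples. Values are background-corrected, quantile-normalized log2 intensities, and a gene was called changed at an adjusted p under 0.05 in limma's test over the 20855 probes that 3 or more of the 6 arrays detected. SE is the standard error of a log2 fold change.

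As a check of the labels, eGFP fell by 1.92 with Ad-Cre (SE 0.14, adjusted p = 3.67e-04), with means of 13.01 for Ad-Cre and 14.93 for Ad-eGFP. It still gave a strong signal on the Ad-Cre arrays, at 13.18, 13.14 and 12.72. The lowest signals of detected probes on the arrays lay between 5.39 and 5.47. The source of the eGFP signal in Ad-Cre-treated cells was not tested, so eGFP checks the labels by its direction only. Of Ctnnb1, probe 3060497 was 0.30 higher (adjusted p = 0.0254), probe 5870370 had a log2 fold change of 0.22 (adjusted p = 0.211), and probe 2030553 fell by 0.39 (adjusted p = 0.0187). Without single arrays the call of Ctnnb1 probe 3060497 was lost, at 0.0530 without Ad-Cre replicate 2 and 0.0713, 0.0889 and 0.0901 without Ad-eGFP replicates 1, 2 and 3, in a range from 0.00503 to 0.0901. For Ctnnb1 probe 2030553 the adjusted p was 0.0587, 0.0707 and 0.0562 without Ad-eGFP replicates 1, 2 and 3, in a range from 0.00685 to 0.0707. Where these probes lie relative to the floxed part of the gene was not analysed, so Ctnnb1 gives no clear check of the labels. Of the Sertoli cell markers, Sox9, Wt1, Dhh, Clu and Cldn11 were detected on every array, and Dmrt1 on none.

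In Ad-Cre-treated cells 11 of the 18 tested chemokine ligand genes rose, counted by any called probe. By the brightest tested probe Ccl7 would not count, and 10.4% of all 14398 genes so represented were higher. The largest changes were in Cxcl10, Ccl5, Ccl4, Cxcl1 and Ccl17. The place of Ccl17 depended on the background step. Without background correction its log2 fold change of 0.51 lay below those of Cxcl16 probe 630274 (0.83) and Cxcl14 probe 150746 (0.70). Of the 66 probes, 30 passed the detection filter, and they stand for 21 genes. At an adjusted p under 0.05, 17 of the 27 tested ligand probes were higher with Ad-Cre, where 10.7% of all tested probes were higher and 12.2% lower. Some probes passed the filter mainly through the group in which they were brighter, so these counts describe the tested probes and not all members. Without any filter, 17 of the 66 probes were higher, where 3.91% of all probes on the array were. The Ad-Cre arrays were all above the Ad-eGFP arrays for 19 of the tested ligand probes, as they were for 20.4% of all tested probes, and all below them for 1, of Ccl27, as they were for 21.6%. The median log2 fold change of the 27 tested ligand probes was 0.75 and that of all 20855 tested probes was 0.0007, and over all 66 probes without a filter it was 0.0859. The count of all called probes, 4774, was 3008 without Ad-Cre replicate 2 and 2925, 2832 and 2481 without Ad-eGFP replicates 1, 2 and 3. In such bulk samples more or fewer cells of a type and more or less RNA per cell cannot be told apart. The study selected groups of genes on these same arrays, so the direction of any chemokine gene among them is not independent evidence for those groups.

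**Figure D1:**
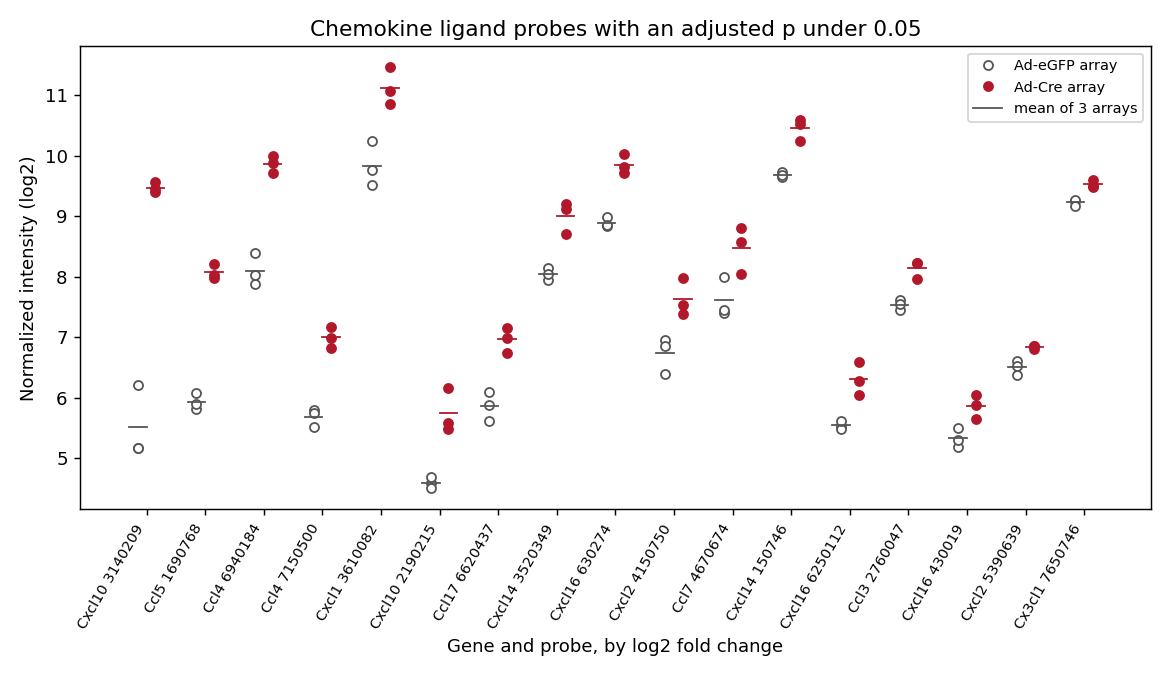
Normalized log2 intensity (vertical axis) of the 17 chemokine ligand probes with an adjusted p under 0.05, ordered by log2 fold change along the horizontal axis. Each open point is an Ad-eGFP array, each filled point an Ad-Cre array, and each line the mean of 3 arrays; the Ad-Cre arrays lie above the Ad-eGFP arrays for each of these probes.

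The ligands of CXCR3, the receptor of activated T cells and natural killer cells, did not share 1 pattern. Cxcl10, an interferon-induced ligand, had log2 intensities of 9.40, 9.45 and 9.56 on the Ad-Cre arrays and of 5.17, 6.21 and 5.17 on the Ad-eGFP arrays with probe 3140209. The Ad-Cre arrays lay close together, and of the Ad-eGFP arrays only replicate 2 detected the probe. This gave a log2 fold change of 3.96 (SE 0.27, adjusted p = 3.14e-04), the largest among the 30 tested chemokine probes. Its exact size rests in part on the Ad-eGFP values below detection, and it was 2.49 without background correction. The other Cxcl10 probe, 2190215, read 5.48, 5.58 and 6.17 with Ad-Cre and was detected on no Ad-eGFP array, which makes it at least 1.24-fold higher (adjusted p = 0.00512). With Ad-Cre, this probe stood only slightly above the detection limit. Cxcl9, a further interferon-induced ligand of the same receptor and a neighbour of Cxcl10 on chromosome 5, was detected on all arrays with means of 6.60 ± 0.08 and 6.50 ± 0.02 (SD, n = 3) for Ad-Cre and Ad-eGFP and a log2 fold change of 0.09 (adjusted p = 0.413), or 0.14 without Ad-Cre replicate 1. Cxcl4, platelet factor, had a log2 fold change of 0.25 (adjusted p = 0.208), or 0.16 without Ad-eGFP replicate 3, and the arrays of both groups overlapped for each of these genes. Cxcl11 was detected on no array.

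Ccl3, Ccl4 and Ccl5, ligands that attract macrophages and T cells, rose with each tested probe. Ccl5 read 8.04, 7.98 and 8.21 on the Ad-Cre arrays and 5.82, 6.09 and 5.90 on the Ad-eGFP arrays, a log2 fold change of 2.14 (SE 0.10, adjusted p = 8.25e-05). The gap between the groups was wider than the range within either. Ccl4 read 9.72, 9.99 and 9.88 with Ad-Cre and 7.88, 8.39 and 8.03 with Ad-eGFP with probe 6940184, a log2 fold change of 1.77 (SE 0.14, adjusted p = 4.62e-04). Its probe 7150500 read 6.83, 6.99 and 7.18 with Ad-Cre and 5.52, 5.79 and 5.76 with Ad-eGFP, a change of 1.31 (adjusted p = 6.97e-04). Both Ccl4 probes were detected on all arrays and agreed in direction. Ccl3, encoded next to Ccl4, read 8.24, 7.97 and 8.24 with Ad-Cre and 7.46, 7.61 and 7.55 with Ad-eGFP, a smaller log2 fold change of 0.61 (SE 0.10, adjusted p = 0.00632). Ad-Cre replicate 2 was the lowest of its group for Ccl3 and the highest for Ccl4 probe 6940184, and no group overlapped the other.

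The tested ligands of CXCR2, which draws neutrophils, also rose. Cxcl1 read 11.07, 10.86 and 11.46 on the Ad-Cre arrays and 9.52, 10.24 and 9.76 on the Ad-eGFP arrays, a log2 fold change of 1.29 (SE 0.22, adjusted p = 0.00700). Ad-eGFP replicate 2 stood above the other Ad-eGFP arrays, and Ad-Cre replicate 2 was the lowest of its group, yet the groups did not overlap. Cxcl2 read 7.54, 7.38 and 7.98 with Ad-Cre and 6.39, 6.96 and 6.86 with Ad-eGFP with probe 4150750, a change of 0.90 (SE 0.20, adjusted p = 0.0177). With probe 5390639 it read 6.85, 6.86 and 6.81 against 6.38, 6.61 and 6.53, a change of 0.34 (SE 0.08, adjusted p = 0.0263). This smaller change was not called without Ad-Cre replicates 1 and 2 (adjusted p = 0.0653 and 0.0781) or without Ad-eGFP replicates 1 and 3 (0.0877 and 0.0794), and over the alternatives it lay between 0.0121 and 0.0877. With the methods' t-test in place of limma's, Cxcl1 was not called (adjusted p = 0.0564, in a range from 2.25e-04 to 0.0564), nor was Cxcl2 probe 4150750 (adjusted p = 0.0932, in a range from 0.00275 to 0.0932). Cxcl5 and Cxcl15 were detected on no array.

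Of the other CXC ligands, Cxcl14 and Cxcl16 rose with every tested probe. Cxcl14 read 10.59, 10.53 and 10.25 with Ad-Cre and 9.66, 9.73 and 9.68 with Ad-eGFP with probe 150746, a log2 fold change of 0.77 (SE 0.10, adjusted p = 0.00309). Its probe 3520349 read 9.12, 9.20 and 8.70 against 8.14, 7.95 and 8.05, a change of 0.96 (adjusted p = 0.00389). Ad-Cre replicate 3, the highest array of its group for Cxcl1, Cxcl2 probe 4150750 and Ccl5, was the lowest for Cxcl14. Cxcl16, a membrane-bound ligand that binds CXCR6 and can be shed, read 9.82, 9.72 and 10.03 with Ad-Cre and 8.85, 8.99 and 8.87 with Ad-eGFP with probe 630274, a change of 0.95 (SE 0.10, adjusted p = 0.00114). Its dimmer probe 6250112 read 6.06, 6.28 and 6.59 against 5.53, 5.48 and 5.62, a change of 0.76 (adjusted p = 0.00843, and 0.0536 with the methods' t-test, in a range from 0.00204 to 0.0536). The dimmest, probe 430019, read 5.88, 6.05 and 5.66 against 5.50, 5.19 and 5.30 and was detected on 1 Ad-eGFP array, with a change of 0.53 (adjusted p = 0.0239). That call was lost without Ad-Cre replicates 1 and 2 (adjusted p = 0.0631 and 0.0698) and without Ad-eGFP replicates 2 and 3 (0.0796 and 0.0790), in a range from 0.00441 to 0.0911. Cxcl13 was detected on no array.

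The ligands of CCR2, which recruits monocytes, lay closer to the threshold. Ccl2 read 7.90, 7.40 and 7.999 on the Ad-Cre arrays and 6.87, 7.47 and 6.71 on the Ad-eGFP arrays. Ad-eGFP replicate 2 lay above Ad-Cre replicate 2, so the groups overlapped, and the log2 fold change of 0.75 (SE 0.23, adjusted p = 0.0553) did not pass the threshold. Without Ad-Cre replicate 2 its adjusted p was 0.0425 and without Ad-eGFP replicate 2 it was 0.0231, in a range from 0.0140 to 0.179. Ccl7, encoded beside Ccl2, read 8.58, 8.04 and 8.82 with Ad-Cre and 7.41, 8.0003 and 7.45 with Ad-eGFP with probe 4670674, a log2 fold change of 0.86 (SE 0.23, adjusted p = 0.0362). The same arrays were the lowest Ad-Cre and the highest Ad-eGFP array, and they nearly met. That call was lost without Ad-Cre replicates 1 and 3 (adjusted p = 0.0964 and 0.0818) and without Ad-eGFP replicates 1 and 3 (0.105 and 0.112), in a range from 0.00625 to 0.141. Ccl7 probe 430131 had a log2 fold change of 0.74 (adjusted p = 0.0742), and the adjusted p became 0.0348 without Ad-Cre replicate 2, or 0.0489 if Ad-eGFP replicate 2 was left out, in a range from 0.0179 to 0.214. Ccl12 was detected on no array.

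**Figure D2:**
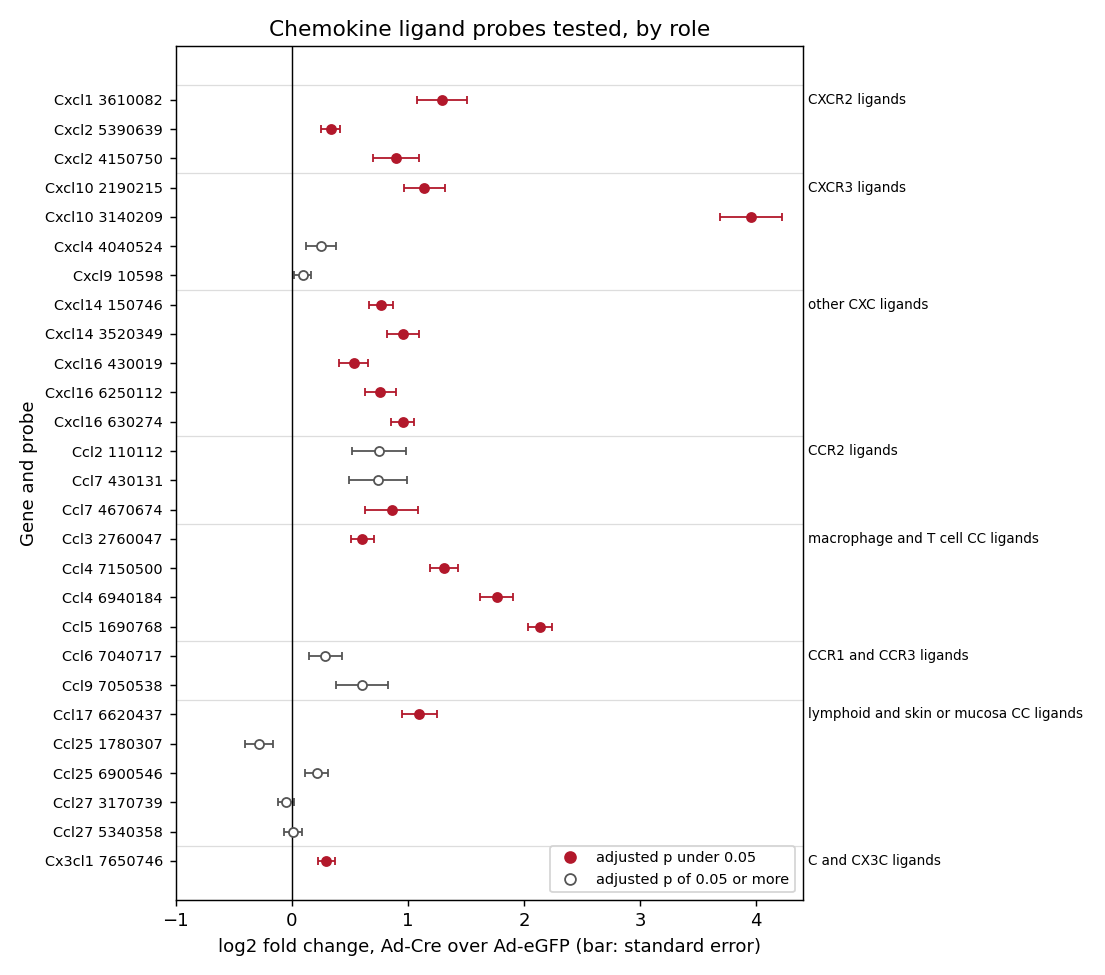
Log2 fold change of Ad-Cre over Ad-eGFP (horizontal axis, bars show the standard error) for the 27 tested chemokine ligand probes, grouped by role along the vertical axis. Filled points have an adjusted p under 0.05; Cxcl10 probe 3140209 lies farthest from 0 at 3.96, and the filled points are all on the positive side. Cxcl10 probe 2190215 was detected on no Ad-eGFP array, so its point is a fitted value and no measured fold.

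Ccl17, a ligand of CCR4 on T cells and encoded near Cx3cl1 on chromosome 8, read 6.999, 6.75 and 7.15 with Ad-Cre and 6.10, 5.88 and 5.63 with Ad-eGFP, which is a log2 fold change of 1.10 (SE 0.15, adjusted p = 0.00312). The groups did not overlap, while Ccl22, the other ligand of CCR4, was detected on no array. Cx3cl1, a membrane-bound ligand of CX3CR1, read 9.60, 9.50 and 9.49 with Ad-Cre and 9.26, 9.26 and 9.18 with Ad-eGFP. Its change of 0.30 (SE 0.07, adjusted p = 0.0266) was small beside those above, though the groups did not overlap. The adjusted p of Cx3cl1 was 0.0715 and 0.0647 without Ad-Cre replicates 1 and 2 and 0.0736, 0.0725 and 0.107 without Ad-eGFP replicates 1, 2 and 3, in a range from 0.00871 to 0.107.

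The other tested ligands did not pass the threshold. Ccl9, a ligand of CCR1, had a log2 fold change of 0.60 (adjusted p = 0.0993) with all Ad-Cre arrays above the Ad-eGFP arrays, and Ccl6, of the same receptor, had 0.29 (adjusted p = 0.193) and was detected on 1 Ad-eGFP array. Single arrays weighed on both, with a log2 fold change of 0.36 for Ccl9 without Ad-Cre replicate 3 and of 0.14 for Ccl6 without Ad-eGFP replicate 3. The probes of Ccl25, a ligand of CCR9, had opposite signs, 0.21 for probe 6900546 (adjusted p = 0.168, and 0.13 without Ad-Cre replicate 3) and -0.28 for probe 1780307 (adjusted p = 0.141). For Ccl27, a skin chemokine, the log2 fold changes were -0.05 (adjusted p = 0.657, and -0.02 without Ad-Cre replicate 1) and 0.0076 (adjusted p = 0.956), and the sign of the latter turned without Ad-Cre replicate 2 (-0.03) and when leaving out Ad-eGFP replicate 2 (-0.02). Of the 8 genes with several tested probes, these 2 had probes of both signs. Ccl27 and the Ccl21 genes have near-identical copies in the mouse genome, and what their probes match was not tested.

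Most receptors were below detection. Cxcr4 was detected on all arrays with a log2 fold change of 0.30 (adjusted p = 0.136), and Cx3cr1, the receptor of Cx3cl1, on all Ad-Cre arrays and 1 Ad-eGFP array with 0.19 (adjusted p = 0.317), or 0.09 and 0.32 without Ad-eGFP replicates 2 and 3. The arrays of both groups overlapped for Cxcr4 and Cx3cr1. Receptors that no array detected include Ccr1, Ccr2, Ccr3, Ccr4, Ccr6, Ccr8, Ccr9, Cxcr3 and Cxcr6, among them the main receptors of Cxcl10 (Cxcr3), Ccl2 (Ccr2), Ccl17 (Ccr4) and Cxcl16 (Cxcr6).

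In all, 36 probes were not tested, with log2 intensities between 4.41 and 5.76, where the lowest signals of detected probes on the arrays lay between 5.39 and 5.47. Of them, 6 were detected on 1 or 2 arrays, among them those of Ccl19, Ccl20, Ccl21c, Ccl24 and Ccr7. Beside the genes already named, Ccl1, Ccl8, Ccl11, Ccl21a, Ccl21b, Ccl26l, Ccl28 and Xcl1 were detected on no array. Ccl20, a ligand of CCR6, read 5.60, 5.29 and 5.16 on the Ad-Cre arrays and 4.87, 4.88 and 4.70 on the Ad-eGFP arrays with probe 2320451. It was detected on Ad-Cre replicate 1 only, so no fold is given, though without the filter its adjusted p was 0.0367. A further 10 probes carry older symbols of chemokine genes, 4 of which are not among the 49, and none of these probes passed the filter.

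Some arrays stood out across several chemokine probes. Ad-eGFP replicate 2 was the highest Ad-eGFP array for 16 of the 30 tested chemokine probes, where it was for 32.8% of all tested probes, and Ad-Cre replicate 3 was the highest Ad-Cre array for 20 of them, where it was for 39.7%. Ad-Cre replicate 2 was the lowest of its group for 16, where it was for 28.2% of all tested probes. What sets these arrays apart was not tested. The background step moved the size of a change for dim probes, and without it the log2 fold change was 2.49 for Cxcl10 probe 3140209, 1.21 for Ccl5, 0.60 for Ccl4 probe 7150500 and 0.51 for Ccl17.

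Proteins that act beside the receptors changed in part. Genes of each list are represented by their brightest tested probe, and over all 14398 genes so represented 10.4% were higher and 12.9% lower with Ad-Cre. Of 7 atypical and decoy receptors measured, 6 were detected on no array, and Ccrl2, which binds chemerin, rose by 0.65 (SE 0.10, adjusted p = 0.00505). Of 23 tested genes of receptor signalling, 4 were higher and 2 lower, with Rgs16 at 7.85 ± 0.17 against 6.55 ± 0.09 (adjusted p = 4.80e-04 in limma's test), Rgs2 at -0.91 (adjusted p = 0.00597) and Rgs4 at 0.78 (adjusted p = 0.00543), regulators that shorten G protein signals. Gnb1, the brightest of that list, had a log2 fold change of 0.13 (adjusted p = 0.364, and 0.0421 without Ad-Cre replicate 3), and the median of the list was 0.11. With the probes of each gene averaged 3 genes of the list were higher in place of 4. Of 5 tested genes entered under another symbol, 2 were higher, Cxcl1 and Cxcl2, which with Ccl2 and Cxcl4 are also described above, and Cklf, the brightest, had 0.0012 (adjusted p = 0.994), with a sign that turned without Ad-Cre replicate 3 (-0.06) and when leaving out Ad-eGFP replicate 3 (-0.02).

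Of 8 tested CMTM genes, a family related to chemokines, 3 were higher. Cmtm5, detected on no Ad-eGFP array, was at least 1.86-fold higher (adjusted p = 0.00199), Cmtm2a changed by 0.50 (adjusted p = 0.0138, and 0.0532 without Ad-eGFP replicate 3, in a range from 0.00149 to 0.0549) and Cmtm4 by 0.48 (adjusted p = 0.00455). Cmtm3, the brightest, had -0.21 (adjusted p = 0.102), and the median of the list was 0.0368. Of 13 tested proteases that trim or shed chemokines, 3 were higher, with a list median of 0.12 and with Ctsb as the brightest (0.12, adjusted p = 0.326). Ctsl changed by 0.38 (adjusted p = 0.0188), Mmp2 by 0.32 (adjusted p = 0.0306) and Ctsk by 0.27 (adjusted p = 0.0282). These 3 calls were lost without each array other than Ad-Cre replicate 3. Without Ad-Cre replicates 1 and 2 and Ad-eGFP replicates 1, 2 and 3, the adjusted p of Ctsl was 0.0504, 0.0591, 0.0657, 0.0611 and 0.0669 in this order (range 0.00315 to 0.0669). In the same order it was 0.0815, 0.0924, 0.0550, 0.108 and 0.0937 for Mmp2 (range 0.00674 to 0.108) and 0.0618, 0.0872, 0.0982, 0.0847 and 0.0971 for Ctsk (range 0.00853 to 0.0982). Adam10 and Adam17, which shed Cxcl16 and Cx3cl1, had -0.09 (adjusted p = 0.651) and -0.06 (adjusted p = 0.661).

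Factors that induce chemokines moved in both directions. Of 12 tested NF-kB subunits and inhibitors, 3 were higher and 1 lower, with a median of 0.11. Tnfaip3, an NF-kB-induced inhibitor of the pathway, rose by 1.45 (SE 0.16, adjusted p = 0.00134) and Relb by 0.82 (SE 0.10, adjusted p = 0.00225). Nfkbia changed by 0.31 (adjusted p = 0.0368), and Rela, the brightest, fell by 0.24 (adjusted p = 0.0477). Both calls were lost without each array other than Ad-Cre replicate 3: without Ad-Cre replicates 1 and 2 and Ad-eGFP replicates 1, 2 and 3 the adjusted p was 0.0962, 0.109, 0.122, 0.0653 and 0.109 for Nfkbia (range 0.00879 to 0.122) and 0.118, 0.101, 0.143, 0.122 and 0.133 for Rela (range 0.0135 to 0.187). Of 8 tested interferon pathway factors, 4 were higher and 2 lower, with a median of 0.53. Irf7 read 7.11, 6.91 and 6.63 on the Ad-Cre arrays, was detected on no Ad-eGFP array and was at least 2.73-fold higher (adjusted p = 1.78e-04). Stat2 rose by 1.09 (SE 0.09, adjusted p = 5.64e-04) and Irf9 by 1.04 (SE 0.08, adjusted p = 4.24e-04), which act together at interferon response elements. Irf3, the brightest, fell by 0.39 (adjusted p = 0.0104, and 0.0512 without Ad-eGFP replicate 3). With the probes of each gene averaged, 1 of these factors was lower in place of 2.

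Of 21 measured cytokines and cytokine receptors, 11 were tested and 4 were higher, with a median of 0.22. Il6ra rose by 1.23 (SE 0.07, adjusted p = 1.86e-04). Il1rap changed by 0.76 (adjusted p = 0.0225), and the call was lost without Ad-Cre replicates 1 and 2 (adjusted p = 0.0515 and 0.0746) and without Ad-eGFP replicates 2 and 3 (0.0727 and 0.0658), in a range from 0.00495 to 0.103. Tnf read 6.94, 6.76 and 6.38 with Ad-Cre and 6.03, 6.08 and 6.14 with Ad-eGFP, a change of 0.61 (adjusted p = 0.0212) that was not called without Ad-Cre replicate 2 (adjusted p = 0.0699) or Ad-eGFP replicates 1, 2 and 3 (0.0680, 0.0623 and 0.0581), in a range from 0.00216 to 0.0909. Ifngr2, the brightest, had a log2 fold change of 0.17 (adjusted p = 0.632), and -0.08 without Ad-Cre replicate 3. With its 3 tested probes averaged Ifngr2 was called, at 0.33 (adjusted p = 0.0195), so that 5 genes of this list were higher in place of 4. Lta, Il1b, Il6, Il17a, Ifng, Ifnb1 and Ifnar1 were detected on no array. Of 11 tested WNT/CTNNB1 target genes, 6 were higher and 1 lower, with a median of 0.46. Fst rose by 2.07 (adjusted p = 6.22e-05), Sp5, detected on no Ad-eGFP array, was at least 2.07-fold higher (adjusted p = 4.62e-04), and Axin2 rose by 1.22 (adjusted p = 0.00178). Ccnd1, the brightest, rose by 1.05 (adjusted p = 2.98e-04).

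Markers of leukocytes, which are rich sources of Ccl3, Ccl4 and Ccl5, moved in both directions. Of 23 measured markers of macrophages and monocytes, 16 were tested, 1 was higher and 4 were lower, with a median log2 fold change of -0.0414. Csf1r, detected on no Ad-eGFP array with this probe, was at least 1.54-fold higher (adjusted p = 0.00204). Fcer1g fell by 0.38 (adjusted p = 0.0124, and 0.0537 and 0.0549 without Ad-eGFP replicates 2 and 3, in a range from 0.00552 to 0.0549) and Lyz2 fell by 0.35 (adjusted p = 0.0275, and 0.0798, 0.0826 and 0.103 without Ad-Cre replicate 2 and Ad-eGFP replicates 1 and 3, in a range from 0.00476 to 0.103). The summed intensity of the tested markers was 10470, 10050 and 10280 on the Ad-Cre arrays and 12580, 12330 and 12750 on the Ad-eGFP arrays, with Lyz1 the brightest. Lyz1 fell by 0.32 (adjusted p = 0.0137, and 0.0514, 0.0552 and 0.0607 without Ad-eGFP replicates 1, 2 and 3, in a range from 0.00176 to 0.0669). Ptprc, the leukocyte common antigen, and Itgam, Fcgr1, C1qa, Cd163, Cybb and Ccr2 were detected on no array. Of 19 measured markers of lymphocytes and neutrophils, 4 were tested and 0 were called in limma's test, with 1 at an unadjusted p under 0.05 and 1 called with the probes of each gene averaged, and 12 were detected on no array, Cd4, Cd8a, Ms4a1 and S100a9 among them. Their sum was 427.1, 437.6 and 473.2 with Ad-Cre and 396.8, 426.0 and 378.1 with Ad-eGFP, with Lck the brightest (0.26, adjusted p = 0.0505, and 0.0464 without Ad-Cre replicate 1).

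Of the markers of testicular cells, mainly those of Sertoli cells were called, where 10.4% of all genes were higher and 12.9% lower. Of 15 tested Sertoli cell markers, 7 were lower, with a median of -0.38. Fshr fell by 1.46 (adjusted p = 3.26e-04), Amh fell by 1.16 (adjusted p = 0.00828, and 0.0621 with the methods' t-test, in a range from 0.00132) and was detected on 1 Ad-Cre array, and Wt1 fell by 0.66 (adjusted p = 0.00154). Their summed intensity was 125600, 122100 and 116600 with Ad-Cre and 141500, 142200 and 147900 with Ad-eGFP, and Cldn11, the brightest, had a log2 fold change of 0.13 (adjusted p = 0.416). Of the 6 tested peritubular myoid markers and the 3 tested Leydig cell markers 0 were called in limma's test, with 2 and 1 at an unadjusted p under 0.05, medians of 0.0813 and -0.28 and with Acta2 and Cyp11a1 the brightest (Cyp11a1 adjusted p = 0.0260 without Ad-Cre replicate 1). With the probes of each gene averaged 1 myoid marker was higher. Cyp17a1, Hsd3b1, Hsd3b6, Insl3 and Lhcgr were detected on no array. The myoid sum was 62540, 60350 and 60440 with Ad-Cre and 59340, 57780 and 59200 with Ad-eGFP, and the Leydig sum was 715.2, 554.6 and 618.1 against 788.0, 755.1 and 731.6. Of 3 tested endothelial markers 1 was higher, Esam (0.68, adjusted p = 0.0247, and 0.0800, 0.0568, 0.0561 and 0.0782 without Ad-Cre replicates 2 and 3 and Ad-eGFP replicates 2 and 3, in a range from 0.0103 to 0.106), with sums of 224.6, 238.8 and 246.0 against 212.0, 203.5 and 210.2 and with Pecam1 the brightest. Of 9 tested germ cell markers 1 was higher, Sycp1 (0.45, adjusted p = 0.0168, and 0.0630 and 0.0686 without Ad-eGFP replicates 2 and 3, in a range from 0.00886 to 0.0686), with sums of 54170, 52950 and 57000 against 56730, 53450 and 52160 and with Ldhc the brightest. With the probes of each gene averaged 1 germ cell marker was also lower, Dazl (-0.30, adjusted p = 0.0189), whose brightest probe had a log2 fold change of -0.03 (adjusted p = 0.861). The part of any of these cells in the chemokine values was not tested.

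Chemokine genes lie in clusters, and neighbours differed in their calls. On chromosome 11, the group of Ccl5, Ccl9, Ccl6, Ccl3 and Ccl4 was tested for all 5 genes and 3 were called higher. Of the 6 genes from Ccl2 to Ccl1 only Ccl2 and Ccl7 had tested probes, and of these only Ccl7 probe 4670674 was called higher. On chromosome 5, Cxcl1 and Cxcl2 rose beside Cxcl5 and Cxcl15, which were not detected, and Cxcl10 rose between Cxcl9, which was not called, and Cxcl11, which was not detected.

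Because several neighbouring ligands rose, the 250 bases before the start of each gene in RefSeq (GRCm38.p6) were searched on both strands for a kappa-B element (GGGANNTTC), an interferon response core (GAAANNGAA) and a TCF/LEF element (ATCAAAG). Of 32851 promoters of this length in the table, 3.23% held the first, 7.13% the second and 3.21% the third. The table held 40 promoters for 36 of the 49 genes. Of the 7 promoters of called genes, those of Cxcl1, Cxcl2 and Cxcl10 held a kappa-B element and those of Ccl3, Cxcl10 and Cxcl14 an interferon response core, and 0 held the TCF/LEF letters. Of the other 33 promoters 3, 4 and 0 held them, and Cxcl9, which was not called, had both a kappa-B element and an interferon response core. A match describes letters only. No promoter was read for Ccl4, Ccl5, Ccl7 or Cxcl16. The promoters of the neighbours Cxcl1 and Cxcl2 and of the neighbours Cxcl10 and Cxcl9 are printed up to the start of the gene, to show the shared letters within each pair, with the matches in capitals. Cxcl9 was added after its values were seen.
Cxcl1, chr5:90890995-90891244, plus strand: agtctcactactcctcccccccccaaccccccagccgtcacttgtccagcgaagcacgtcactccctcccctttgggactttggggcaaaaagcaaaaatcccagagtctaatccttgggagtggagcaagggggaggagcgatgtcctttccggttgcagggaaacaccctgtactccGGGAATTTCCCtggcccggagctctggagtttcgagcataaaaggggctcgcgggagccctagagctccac
Cxcl2, chr5:90903649-90903898, plus strand: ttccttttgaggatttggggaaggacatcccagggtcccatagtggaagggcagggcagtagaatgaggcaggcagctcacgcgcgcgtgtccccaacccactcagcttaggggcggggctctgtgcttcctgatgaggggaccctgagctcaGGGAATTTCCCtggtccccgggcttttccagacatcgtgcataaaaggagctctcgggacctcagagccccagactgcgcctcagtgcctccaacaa
Cxcl10, chr5:92348890-92349139, minus strand: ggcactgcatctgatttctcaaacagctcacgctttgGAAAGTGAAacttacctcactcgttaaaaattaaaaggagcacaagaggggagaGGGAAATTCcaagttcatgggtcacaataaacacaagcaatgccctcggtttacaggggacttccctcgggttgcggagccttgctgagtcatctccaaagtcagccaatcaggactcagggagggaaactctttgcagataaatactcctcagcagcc
Cxcl9, chr5:92328080-92328329, minus strand: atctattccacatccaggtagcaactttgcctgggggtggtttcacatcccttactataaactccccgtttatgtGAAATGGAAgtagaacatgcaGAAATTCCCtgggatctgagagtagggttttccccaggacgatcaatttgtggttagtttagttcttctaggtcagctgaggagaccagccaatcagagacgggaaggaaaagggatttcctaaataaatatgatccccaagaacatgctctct
In Cxcl1 and Cxcl2 the capitals hold overlapping matches on both strands, which end 62 and 60 bases before the start in Cxcl1 and 88 and 86 bases before it in Cxcl2. In Cxcl10 the interferon response core ends 204 and the kappa-B element 150 bases before the start, and in Cxcl9 they end 166 and 145 bases before it.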

How the data were processed

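The authors deposited raw probe intensities, neither normalized nor background-corrected, and for each probe and array a detection p-value. A table of the authors' own comparison (mean log2 value of each treatment, fold change, t-statistic, unadjusted p) was not used, nor were 12 columns that give the SD and number of beads. Groups and replicate numbers came from the sample titles. limma 3.58.1 under R 4.3.3 was used on the intensities (normexp background correction with an offset of 16, quantile normalization, log2). Probes that passed a detection p-value of 0.05 on 3 or more of 6 arrays were compared with lmFit and eBayes, two-sided, with Benjamini-Hochberg adjustment over all 20855. Where a treatment was below detection on each array, the brighter mean was compared with a bound: per array, the probe's signal or, if higher, the dimmest detected signal. An exact permutation test of 3 arrays against 3 cannot give a two-sided p under 0.1, so only the overlap of arrays is given for single values.

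Symbols were matched to RefSeq by symbol or synonym (21545 of 31490, and 49 of 49 for chemokines), and not every gene of these families is reported here. Members and lists were chosen with earlier results of these data known. Called and bounded members were given on all arrays, and of each list the 3 called genes with the largest change and the brightest; Ccl2, Ccl20, Cxcl9, Dazl, Adam10, Adam17, the undetected genes and the arrays that stood out were chosen after their values were seen. Alternatives were no background correction, an offset of 50, median scaling, no filter, a detection p under 0.01 on all arrays, array weights, the methods' t-test without its EB algorithm, a replicate block, leaving out each array, and averaging the probes of a gene. Running them for label checks and list genes was chosen after seeing the data. The procedure was tested on simulated data.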

Additional observations from a re-analysis of the deposited data

How the results depend on the processing

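Of the 18 called chemokine probes, 10 kept their call in every alternative that tested them. Those of Cxcl10, Ccl5, Ccl4, Ccl3, Ccl17 and Cxcl14 were among them. The stricter filter tested only 20 chemokine probes, and it left out Ccl5, Ccl17, Ccl4 probe 7150500 and each Cxcl10 probe. The number of chemokine probes called higher, 17, lay between 12 (the stricter filter and the methods' t-test) and 19 (no background correction and an offset of 50), and between 13 and 17 when each array was left out. By the methods' t-test all tested probes gave 3214 calls after Benjamini-Hochberg adjustment and 1622 at the thresholds of the methods. Over all probes the count of 4774 lay between 2481 and 5666 without 1 array and between 3214 and 7084 under the other alternatives. With the replicate block the counts were 4162 over all probes and 16 for chemokine probes called higher; Ccl7 probe 4670674 (adjusted p = 0.0778) and Cx3cl1 (0.0512) were then not called and Ccl9 (0.0191) was. Same-numbered arrays deviated from their group means with correlations of 0.157, 0.055 and 0.041, and the other pairs lay between -0.099 and 0.041. Ad-Cre replicate 3 was as close to Ad-eGFP replicate 2 as to its own number. So few arrays cannot decide whether same-numbered arrays were paired. Ccl27 probe 5340358, not called, lay between -0.0278 and 0.0426 without 1 array, and was -0.0214 without Ad-eGFP replicate 2. Among genes that were the brightest of their list but were not called, Cklf lay between -0.0606 (Ad-Cre replicate 3 left out) and 0.0525 without 1 array, with -0.0158 when Ad-eGFP replicate 3 was left out and -0.0582 with array weights. Ifngr2 lay between -0.0833 and 0.4001 and Ldhc between -0.0052 and 0.0663, each negative only when Ad-Cre replicate 3 was left out. Ccl2 and Ccl7 probe 430131 were called without background correction, with an offset of 50, with median scaling and with the stricter filter, Ccl9 without background correction, and Ccl25 probe 1780307 with array weights. The cause of these changes was not tested.

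The size of a change for a dim probe depended on the background step. Without background correction the log2 fold change was 2.49 for Cxcl10 probe 3140209, 1.21 for Ccl5 and 0.51 for Ccl17. With a detection threshold of 0.01 the bounded Cxcl10 probe 2190215 gave no fold. Median scaling moved the share of higher calls over all probes from 46.7% to 51.3%, and the median of all probes to 0.0217.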
